A study of Mus musculus with 4 samples.

Results

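The enzymes that make cholesterol and fatty acids, with the proteins that regulate them, were followed as a set of 37 genes in mouse embryonic fibroblasts, cells grown out of mouse embryos. The set was chosen by gene symbol: 19 genes of the sterol arm, 13 of the fatty acid arm and 5 regulators. These members, and the gene lists used below, were chosen with earlier results of these data known. Their counts beside the shares of all genes are therefore no independent support. On the MOE430A array, 34 of the 37 had at least 1 probe set annotated with that symbol alone, which gave 68 of the 22626 probe sets that are not controls. Insig1, Acat2 and Acsl3 had none and are not analysed here. All 4 samples carried the retroviral vector pBabePuro. In control 1 and control 2 it was empty, and in mTert 1 and mTert 2 it held mTert, the catalytic subunit of mouse telomerase. The labels give no promoter for the transgene, no passage, no age of the embryos and no statement on whether arrays of a group came from separate cultures, so the p-values speak only for the spread among these 4 samples, and that spread may be technical. They also do not say what the numbers 1 and 2 stand for.

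Cholesterol is built from acetyl-CoA through mevalonate, farnesyl diphosphate, squalene and lanosterol, and fatty acids from the same acetyl-CoA through malonyl-CoA, with later elongation and desaturation. Both routes are under transcriptional control of the SREBP factors, which Srebf1 and Srebf2 encode. When membrane sterol is low, the escort protein SCAP carries SREBP to the Golgi, where it is cut and released to the nucleus; when sterol is high, INSIG proteins hold the SCAP and SREBP complex in the endoplasmic reticulum. SREBP-2 acts mainly on sterol genes and SREBP-1c mainly on fatty acid genes, usually beside the CCAAT-binding factor NF-Y.

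Promoter sequences are shown for 5 members because they differ in the SREBP-type and CCAAT letters that the arms are known for. RefSeq promoters on GRCm38.p6, from 250 bases before to 50 bases after a start site, were at hand for 30 of the 37 members (40 promoters), and not for Fdps, Fdft1, Sqle, Stard4, Scd1, Scd2 and Fads1. Capitals mark TCACNNCA, a loose spelling of the sterol regulatory element core, its stricter form TCACNCCAC, which contains it, and CCAAT, each on either strand. Adjoining or overlapping matches run together in capitals. The loose spelling was chosen after the promoters had been read.
Hmgcs1 promoter, chr13:119690101-119690400, plus strand: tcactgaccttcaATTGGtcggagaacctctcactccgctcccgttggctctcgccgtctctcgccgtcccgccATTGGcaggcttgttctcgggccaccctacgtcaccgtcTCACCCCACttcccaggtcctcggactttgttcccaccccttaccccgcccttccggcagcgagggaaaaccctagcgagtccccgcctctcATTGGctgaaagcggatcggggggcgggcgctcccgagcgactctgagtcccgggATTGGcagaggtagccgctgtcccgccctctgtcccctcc
Cyp51 promoter, chr5:4104648-4104947, minus strand: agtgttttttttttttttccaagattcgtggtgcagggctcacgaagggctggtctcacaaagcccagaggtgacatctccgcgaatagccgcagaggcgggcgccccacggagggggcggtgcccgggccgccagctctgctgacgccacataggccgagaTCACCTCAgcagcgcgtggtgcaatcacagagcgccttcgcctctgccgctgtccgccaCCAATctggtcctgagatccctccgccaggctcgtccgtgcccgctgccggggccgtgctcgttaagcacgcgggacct
Hsd17b7 promoter, chr1:169969156-169969455, minus strand: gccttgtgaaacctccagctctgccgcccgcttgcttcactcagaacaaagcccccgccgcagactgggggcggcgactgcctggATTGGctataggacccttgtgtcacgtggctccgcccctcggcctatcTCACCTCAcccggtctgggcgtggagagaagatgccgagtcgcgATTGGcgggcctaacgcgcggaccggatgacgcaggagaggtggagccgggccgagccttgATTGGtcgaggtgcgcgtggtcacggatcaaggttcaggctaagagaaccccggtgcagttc
Srebf2 promoter, chr15:82147019-82147318, plus strand: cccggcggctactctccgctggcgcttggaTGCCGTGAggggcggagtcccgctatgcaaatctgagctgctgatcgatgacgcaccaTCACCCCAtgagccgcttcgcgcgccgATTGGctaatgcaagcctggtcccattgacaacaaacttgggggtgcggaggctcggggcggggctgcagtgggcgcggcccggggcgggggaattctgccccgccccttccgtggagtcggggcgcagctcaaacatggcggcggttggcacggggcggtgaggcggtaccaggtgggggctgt
Fasn promoter, chr11:120824498-120824797, minus strand: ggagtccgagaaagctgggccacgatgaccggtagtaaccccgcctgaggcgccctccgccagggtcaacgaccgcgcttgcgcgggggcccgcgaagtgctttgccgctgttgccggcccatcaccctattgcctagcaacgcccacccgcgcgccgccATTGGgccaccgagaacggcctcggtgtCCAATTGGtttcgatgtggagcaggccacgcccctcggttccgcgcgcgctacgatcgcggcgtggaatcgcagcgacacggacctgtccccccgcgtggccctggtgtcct
Hmgcs1 encodes the HMG-CoA synthase that opens the mevalonate route, and its promoter held TCACCCCAC with its first base 137 bases before the start site. Cyp51, lanosterol demethylase, and Hsd17b7, a later ketosteroid reductase, held the same 8 letters, TCACCTCA, at 88 and 117 bases before it. Srebf2 held TCACCCCA at 162 bases before the start and a match on the other strand at 220 bases before. Fasn, the fatty acid synthase, held 3 CCAAT matches and no TCACNNCA in this window. TCACNNCA was present in 9 of 18 sterol promoters (50%), 1 of 12 fatty acid promoters (8.33%), 2 of 10 regulator promoters (20%) and 13.8% of all 32851 promoters. CCAAT was present in 14 of the 18 sterol promoters (77.8%), 7 of the 12 fatty acid ones (58.3%) and 37.4% of all. The strict form stood in 1 sterol promoter, that of Hmgcs1, and in 1.24% of all. These counts describe letters and not binding.

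Between 51.6% and 54.4% of probe sets were called present on each array. The check of the transgene came out as labelled, since Tert had signals of 128 and 84.7, called absent, on control 1 and control 2, and 1165 and 845, called present, on mTert 1 and mTert 2. All 14 fibroblast markers on the array, among them the collagens and Pdgfra, were called present on each array, and their summed signal ran from 123719 to 131280; 2 of the 14, Thy1 and Dcn, fell on the arrays titled 2 by limma, where 1.15% of all genes did, and 4 had an unadjusted p under 0.05, all lower, where 4.55% of all genes did. The arrays titled 2 stood apart from those titled 1. Of 20 macrophage markers, 8 were called present on control 1 and 8 on mTert 1, against 16 on control 2 and 17 on mTert 2. Their summed signal was 3922 on control 1, 4528 on mTert 1, 18666 on control 2 and 19527 on mTert 2. Csf1r, the receptor for macrophage colony-stimulating factor, and Adgre1, the F4/80 antigen, were called present on every array, whereas the complement gene C1qa was called absent on both arrays titled 1, and Aif1 and Fcgr1 on all 4. The 8 macrophage markers called present on all 4 arrays each rose on the arrays titled 2 by limma at an adjusted p under 0.05, where 1.91% of all genes did. The other 8 tested, C1qa among them, were called absent on both arrays titled 1 and entered the test only through the arrays where they were high, so their calls are not counted. Of the other lists, 6 of 9 adipocyte markers, Adipoq and Pparg among them, were absent on all arrays, as were 7 of 10 epithelial and endothelial ones. Of the 3 tested adipocyte markers 1, Lpl, rose by limma, where 1.91% of all genes did. Its signals were 844.5 on control 1, 1811 on control 2, 809.2 on mTert 1 and 1694 on mTert 2. Fabp4 and Cebpa were not called, and Fabp4 was lower on control 2 than on control 1. Less labelled cRNA was noted for control 1, 5 µg, than for control 2, mTert 1 and mTert 2, 15 µg, so the control pair differed in it and the mTert pair did not. Each array had its own wash module. In RNA from whole cultures, fewer cells of a type and less RNA per cell cannot be told apart.

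Of the 34 measured genes, 31 had a probe set called present on at least 2 arrays and were tested: 15 of the sterol arm, 12 of the fatty acid arm and 4 regulators. All 31 had at least 1 probe set called present on all 4 arrays. These 31 genes had 55 tested probe sets; the brightest stands for the gene, and 24 others are counted by sign. Mvk and Pmvk, the kinases that phosphorylate mevalonate and phosphomevalonate, were called absent on all 4 arrays by each of their probe sets. Tm7sf2, a sterol reductase, was called present on control 1 alone, with signals of 370.1, 393.3, 496.8 and 334.6 on control 1, control 2, mTert 1 and mTert 2. These 3 genes have no tested value. Signals are scaled arbitrary units in that order of arrays throughout, and are compared between arrays and not between genes.

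Arrays titled 2 were compared with arrays titled 1 inside each group. Most sterol genes had less signal on the arrays titled 2, in the controls and in the mTert cells alike. Of the 15 sterol genes tested, 13 were lower in both pairs and 0 higher in both, where 24.6% of all 7387 genes were lower and 28.2% higher in both. For 10 of the 15 both arrays titled 2 lay below both arrays titled 1, which held for 18.4% of all genes; the reverse held for 0 of the 15 and 21.9% of all. The median log2 difference was -0.35 (quartiles -0.46 and -0.20), against 0.01 over all genes. By limma with the group as a term, Fdps, Cyp51 and Sqle fell, 3 of the 15, where 1.15% of all genes were called lower; 0 were called higher, where 1.91% of all were (1.07% and 1.73% of all probe sets). An unadjusted p under 0.05 was reached by 8 sterol genes on the lower side and 0 on the higher, against 4.55% and 5.66% of all genes. The lowest sterol value was -0.69 and the highest 0.01.

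The calls depended on the fit more than the direction did. The fit has 1 residual degree of freedom, and on simulated data its calls included more false ones than the threshold allows. Without the intensity trend limma called 0 of the 31 members. The number of members called was 1 (Fdps) without control 1 and 0 without control 2, without mTert 1 or without mTert 2, in fits that leave out the group term. An exact permutation test of 2 against 2 arrays that ignores the group cannot give a two-sided p under 0.333. One kept inside each group has fewer arrangements still. In the control pair 14 of the 15 sterol genes were lower, and in the mTert pair, both at 15 µg, also 14, where 47.0% and 49.3% of all genes were. The median sterol difference was -0.31 in the control pair and -0.33 in the mTert pair. The part of the macrophage markers, which moved with the number, in this result was not tested; the 14 fibroblast markers, with the 2 that fell, had a median of -0.03 in the same comparison. The part of the cRNA amount was not tested either, and the mTert pair, which did not differ in it, gave the median above.

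**Figure D1:**
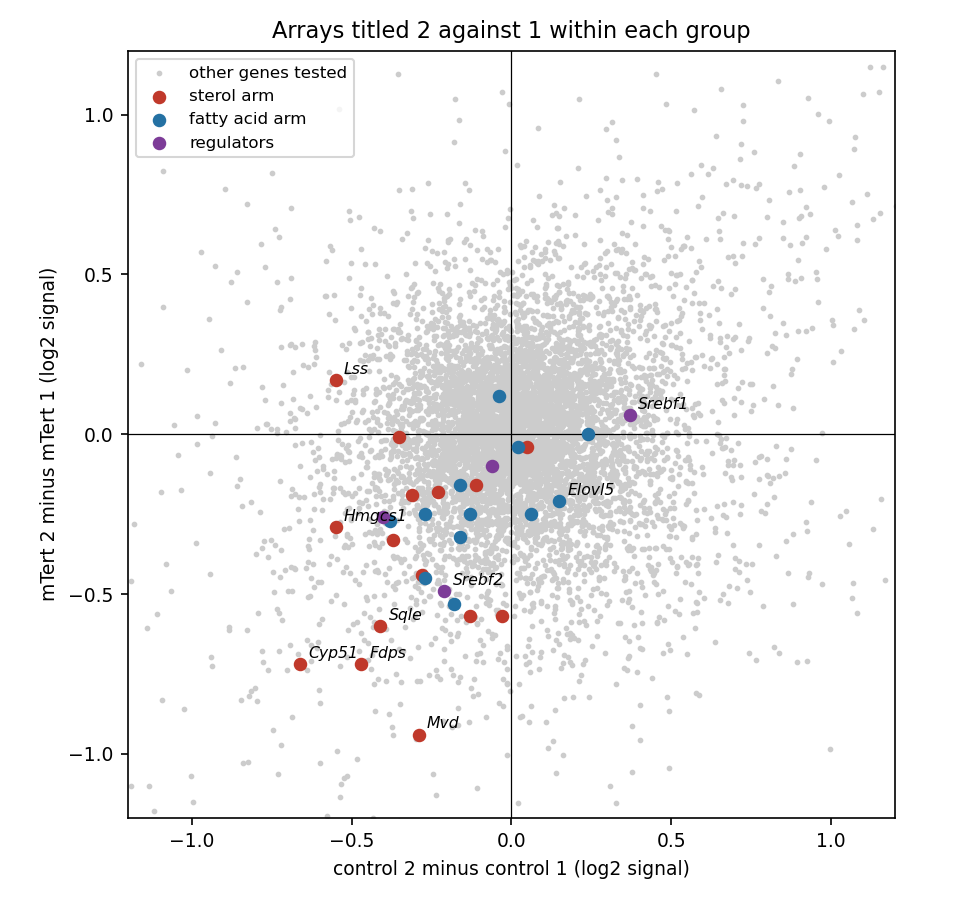
Each point is a gene, with the log2 signal of control 2 minus control 1 on the horizontal axis and of mTert 2 minus mTert 1 on the vertical axis, for the sterol arm (red), fatty acid arm (blue), regulators (purple) and other tested genes (grey; 134 of the 7387 genes lie beyond the axis limit of 1.2 and are not drawn). Of the 15 sterol genes 13 lie below 0 on both axes, Cyp51 at -0.66 and -0.72, while Lss lies to the left and above 0 and Srebf1 lies above 0 on both.

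The mevalonate steps had a median of -0.51 over 4 tested genes that were each lower in both pairs. Hmgcs1 had signals of 3341, 2289, 2894 and 2369. Both arrays titled 2 lay below both titled 1, with a log2 difference of -0.42 (SE 0.11, limma adjusted p = 0.0504), just outside the threshold. Its other 3 tested probe sets stood at -0.71 (adjusted p = 0.00189), -0.55 (adjusted p = 0.0459) and -0.17 (adjusted p = 0.721) by limma, so 2 of the 4 fell. Fdps, the farnesyl diphosphate synthase, had signals of 1870, 1351, 2179 and 1324. It was 1.51-fold lower on the arrays titled 2, at -0.59 (SE 0.13, limma adjusted p = 0.0122), by 0.47 less in the control pair and 0.72 less in the mTert pair. Mvd, which makes isopentenyl diphosphate, had signals of 379.1, 310.6, 466.8 and 242.6 and stood at -0.62 (SE 0.21, limma adjusted p = 0.178). The arrays separated by number for this probe set, but the second Mvd probe set stood at 0.06, with 0.39 in the control pair and -0.28 in the mTert pair. Idi1, the isomerase of that product, stood at -0.25 (SE 0.16) and its second probe set at -0.42 (SE 0.20).

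Squalene is formed and cyclised by the next 3 enzymes, whose median was -0.35. Sqle, the squalene epoxidase and a rate-limiting step, had signals of 1957, 1478, 1972 and 1297. The arrays titled 1 were nearly level with each other and both above the arrays titled 2, with a difference of -0.51 (SE 0.12, limma adjusted p = 0.0338). Its limma adjusted p was 0.0588 after quantile scaling, 0.0667 with no filter on calls and 0.0678 with no group term, so this call was lost there. Fdft1, the squalene synthase, had signals of 818.7, 748.3, 960.2 and 648.8, and a difference of -0.35 (SE 0.16, limma adjusted p = 0.453). Another of its probe sets stood at -0.51. The remaining tested one, at -0.30, was called present on the arrays titled 1 alone and so passed the filter only where it was high. Lss, lanosterol synthase, did not follow: its signals were 419.2, 285.6, 279.4 and 314.3, so control 1 was high and the other arrays were close to each other.

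From lanosterol to cholesterol 6 of 7 tested genes were lower in both pairs, with a median of -0.30. Cyp51 had signals of 1102, 699.7, 1071 and 648.9. The groups of arrays by number were far apart and each pair moved by a like amount, -0.66 in the controls and -0.72 in the mTert cells. The difference was -0.69 (SE 0.15, limma adjusted p = 0.0133), or 1.61-fold lower, and the second tested probe set stood at -0.45 (SE 0.20). Msmo1, the methylsterol oxidase, had signals of 1084, 894.5, 1115 and 820.1 and stood at -0.36 (SE 0.14, limma adjusted p = 0.323). Hsd17b7 stood at -0.35 (SE 0.16) and Nsdhl, which works beside it in removing the methyl groups, at -0.30 (SE 0.15), almost wholly from the mTert pair, at -0.57 against -0.03 in the controls. Dhcr7, which carries out a last reduction, stood at -0.21 (SE 0.18) and Ebp, the sterol isomerase, at -0.18 (SE 0.16). Sc5d, the lathosterol oxidase, had signals of 738.7, 766.1, 732.3 and 713.9 and stood at 0.01 (SE 0.15).

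Stard4, a carrier that moves cholesterol between membranes, was read by 2 probe sets that gave different sizes. The brighter had signals of 876.8, 811.8, 791.6 and 708.5 and stood at -0.14 (SE 0.15). The other had 641.0, 382.1, 595.0 and 332.9 and fell by 0.79 (SE 0.17, limma adjusted p = 0.0161), the largest difference among all tested probe sets of the members. Counting a gene by any of its probe sets, a choice made after seeing the data, 5 sterol genes fell (Hmgcs1, Fdps, Sqle, Cyp51 and Stard4). That is 6 of 24 sterol probe sets, where 1.07% of all tested probe sets were called lower. Of the other 9 sterol probe sets 8 lay on the same side as the probe set that stands for the gene, the exception being Mvd; the 8 include the Fdft1 probe set that passed the filter only through the arrays titled 1.

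**Figure D2:**
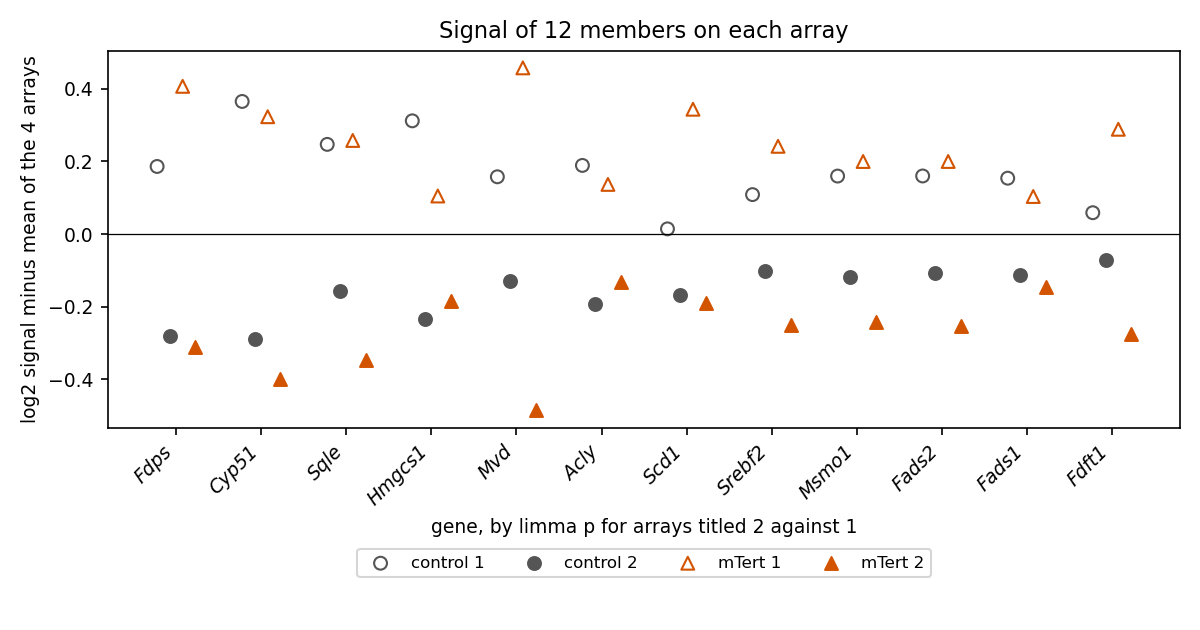
Signals of the 12 members with the smallest limma p for arrays titled 2 against 1, as log2 signal minus the mean of the 4 arrays, with circles for control, triangles for mTert, open symbols for arrays titled 1 and filled symbols for arrays titled 2. In all 12 genes both filled symbols lie below both open ones; Cyp51 runs from 1102 and 1071 to 699.7 and 648.9.

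The fatty acid arm moved less. Of its 12 tested genes 7 were lower in both pairs, where 24.6% of all genes were, 0 higher in both and 5 split, with a median of -0.18 (quartiles -0.27 and -0.02). By limma 0 of the 12 were called in either direction, where 1.15% of all genes were called lower and 1.91% higher. An unadjusted p under 0.05 was reached by 4 of the 12, all lower, where 4.55% of all genes did on that side. In the control pair the sterol median was -0.31 and the fatty acid median -0.15. In the mTert pair they were -0.33 and -0.25. By sign, 8 of the 12 fatty acid genes were lower in the control pair and 11 in the mTert pair. Of all genes 47.0% and 49.3% were. Among the 15 sterol genes 14 were lower in each pair, so the arms differed less by this count in the mTert pair. The sterol median minus the fatty acid median was -0.17, and -0.08 in the mTert pair alone, a difference of medians that was not tested. The Acss2 probe set in the fatty acid median passed the filter only through the arrays titled 1. With only probe sets called present on all 4 arrays, that median was -0.22 and the difference of medians -0.13.

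Acetyl-CoA supply came first. Acly, ATP citrate lyase, had signals of 2702, 2072, 2606 and 2162, with a difference of -0.33 (SE 0.11, limma adjusted p = 0.181). Its 2 other tested probe sets stood at -0.23 and -0.13, so all 3 had the same sign. Acss2, which makes acetyl-CoA from acetate, stood at -0.10 (SE 0.19) by its brighter probe set, called absent on both arrays titled 2. Its other probe set, called present on all 4, stood at -0.52 (SE 0.27). Me1, the malic enzyme that supplies NADPH, stood at -0.19 (SE 0.13) and its second probe set at 0.21 (SE 0.15). In chain building, Acaca, acetyl-CoA carboxylase, stood at -0.24 (SE 0.24), with -0.16 in the control pair and -0.32 in the mTert pair. Fasn had signals of 1381, 1396, 1256 and 1218, a difference of -0.01 (SE 0.13).

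By the probe set that stands for each gene, all 4 desaturases had both arrays titled 2 below both titled 1. So had Acly, Me1 and Acaca, 7 of the 12 in all, where 18.4% of all genes did. The reverse held for 0 of the 12 and 21.9% of all. Scd1, a stearoyl-CoA desaturase, had signals of 1786, 1573, 2244 and 1550.4, with mTert 1 the highest. It stood at -0.36 (SE 0.13, limma adjusted p = 0.215), and its second probe set at -0.47 (SE 0.18). Fads2, the delta-6 desaturase, had 882.6, 733.1, 907.4 and 663.1 and stood at -0.36 (SE 0.15, limma adjusted p = 0.369), with its second probe set at -0.38. Fads1, the delta-5 desaturase, had 2158, 1795, 2083 and 1753 and stood at -0.26 (SE 0.12, limma adjusted p = 0.433). Scd2 stood at -0.16 (SE 0.08), with its other probe sets at -0.38 and 0.15. The one at 0.15 had both arrays titled 2 above both titled 1, as had the second Me1 probe set. None of these passed the test. The brightest probe sets of the elongases did not separate by number: Elovl1 stood at 0.12 (SE 0.12), Elovl5 at -0.03 (SE 0.10) and Elovl6 at 0.04 (SE 0.15). Their other probe sets did, in different directions. Those of Elovl1 lay higher on the arrays titled 2, at 0.05 (SE 0.12) and 0.11 (SE 0.13). Those of Elovl5 and Elovl6 lay lower, at -0.19 (SE 0.11) and -0.22 (SE 0.19), and none passed the test. Over the arm, 9 of the 12 other probe sets had the sign of the one that stands for the gene. The exceptions were of Elovl6, Me1 and Scd2.

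**Figure D3:**
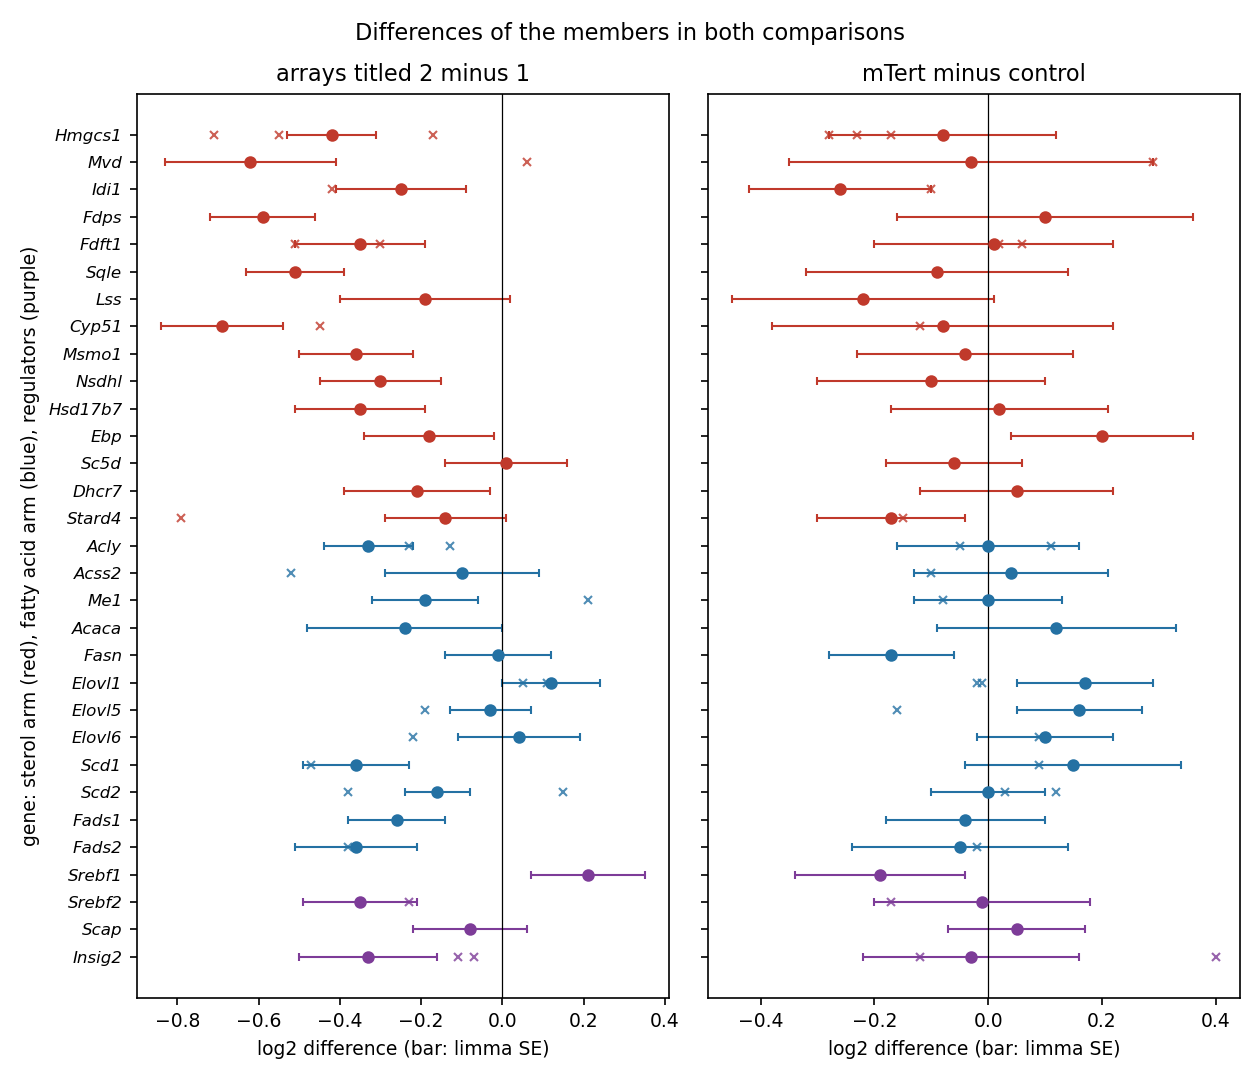
Log2 differences of the 31 tested members, arrays titled 2 minus 1 on the left and mTert minus control on the right, with circles for the probe set that stands for each gene, bars for its limma SE and crosses for the gene's other tested probe sets. On the left the sterol genes run from -0.69 to 0.01, and on the right from -0.26 to 0.20 around 0.

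Of the 4 tested regulators 3 were lower in both pairs and 1, Srebf1, higher in both, where 24.6% and 28.2% of all genes were. For the same 3 both arrays titled 2 lay below both titled 1, and for Srebf1 above. That held for 18.4% and 21.9% of all genes. The median was -0.21. Srebf2 had signals of 1258, 1088, 1380 and 981.4, with both arrays titled 2 below both titled 1. It stood at -0.35 (SE 0.14, limma adjusted p = 0.320) and its second probe set at -0.23. Srebf1 went the other way, with 1070.1, 1379, 1046 and 1091, control 2 being high and the other arrays close together. It stood at 0.21 (SE 0.14, limma adjusted p = 0.753), with 0.37 in the control pair and 0.06 in the mTert pair. The annotation does not say which of the SREBP-1a and SREBP-1c transcripts its single probe set reads. Insig2, which holds SCAP in the endoplasmic reticulum, had 555.8, 420.0, 520.0 and 433.3 and stood at -0.33 (SE 0.17, limma adjusted p = 0.574); its other probe sets stood at -0.11 and -0.07. Scap had the smallest difference of the 4, at -0.08 (SE 0.14). By limma 0 of the 4 regulators were called, where 1.15% of all genes were called lower and 1.91% higher. Only Srebf2 had an unadjusted p under 0.05, on the lower side, where 4.55% of all genes did. On the higher side 5.66% of all genes did.

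Genes around the pathway were counted from lists. Of 4 tested genes that make other sterols and isoprenoids, limma called 0, with a median of -0.04. Sterol uptake, storage and efflux genes gave 0 of 10 and a median of 0.03, other fatty acid and glyceride genes 0 of 16 and -0.02, and genes that process or partner SREBP 0 of 10 and 0.02. In these lists 1, 2, 3 and 2 genes were lower in both pairs, in that order, and 1, 3, 4 and 3 were higher in both. Of all genes 24.6% were lower and 28.2% higher in both. By limma 0, 1, 2 and 2 had an unadjusted p under 0.05 in either direction. Over all genes 4.55% had one on the lower side and 5.66% on the higher. The 11 cycling markers had a median of 0.06 and 0 calls. Of all genes 1.15% were called lower and 1.91% higher.

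**Figure D4:**
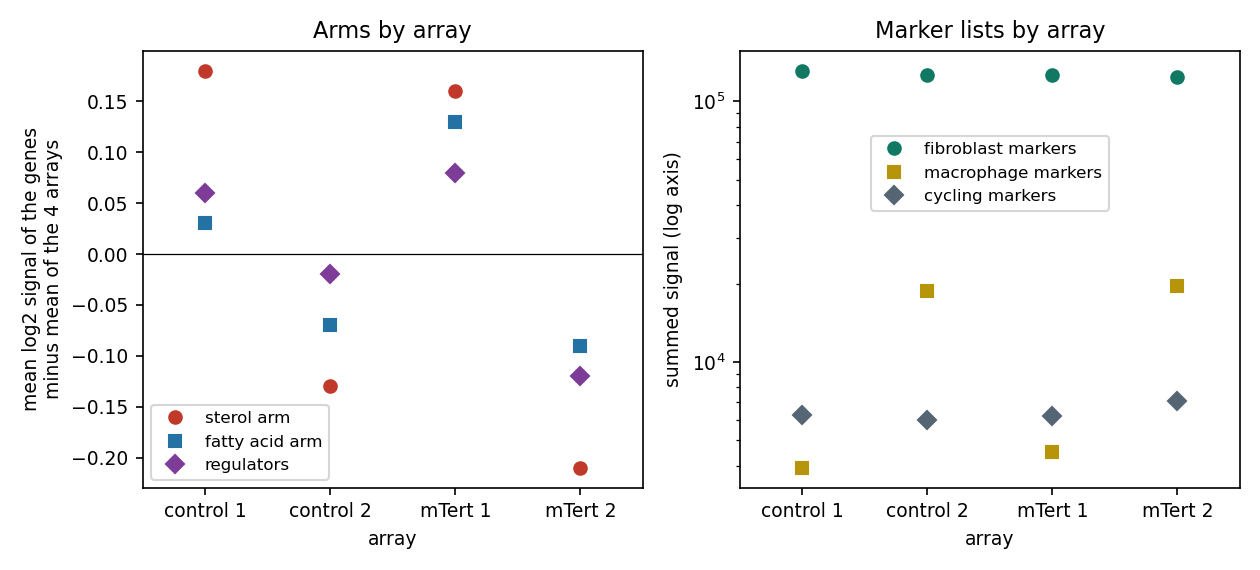
On the left, the mean log2 signal of the tested genes of each arm on each array, minus the mean of the 4 arrays; on the right, the summed signal of 3 marker lists on a log axis. The sterol arm stood at 0.18 and 0.16 on control 1 and mTert 1 and at -0.13 and -0.21 on control 2 and mTert 2, while the macrophage list stood at 3922 and 4528 on the former arrays and 18666 and 19527 on the latter.

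The mTert arrays were compared with the control arrays to ask whether the pathway differs in fibroblasts that carry the telomerase subunit. No member passed the test. By limma 0 of the 31 members were called, and 0 had an unadjusted p under 0.05. Over all probe sets 0 were called (0.0%) and 2.11% had such a p (2.21% of genes). Tert itself, with the signals given above, was thus not called by this fit either. The 0 calls therefore cannot show that the members are unchanged. With the number as a replicate block limma called 18 probe sets (0.145%) but still 0 members. The sterol median was -0.06 (quartiles -0.09 and 0.01), with 10 of 15 genes lower in sign, the fatty acid median 0.02 with 4 of 12 lower, and the median of all genes 0.01. The arms lay 0.08 apart by these medians. Both mTert arrays lay below both controls for 3 sterol genes and above for 1, and below for 1 fatty acid gene and above for 2, where 11.7% and 13.8% of all genes did. Each group held 1 array of each number, so the spread within a group cannot be told apart from the number. Fdps, the member with the smallest p by number, had a mean of 1610 ± 366 in control and 1751 ± 604 in mTert (SD, n = 2). That spread differed between genes: Elovl1 had 1577 ± 181 in control and 1769 ± 2.41 in mTert.

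The members with the smallest p were given in full although none passed. Idi1 had signals of 825.0, 666.8, 663.1 and 581.7, with means of 745.9 ± 112 in control and 622 ± 57.5 in mTert (SD, n = 2). Both mTert arrays lay below both controls, by a margin of a few units between control 2 and mTert 1, with a log2 difference of -0.26 (SE 0.16, limma adjusted p = 1.0). Fasn, at 1388 ± 10.7 in control and 1237 ± 27.0 in mTert, stood at -0.17 (SE 0.11) and also did not overlap. The brighter Stard4 probe set likewise had both mTert arrays below the controls, at -0.17 (SE 0.13), and the other stood at -0.15.

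On the higher side stood Ebp at 0.20 (SE 0.16), with 742.0 ± 128 in control and 846.8 ± 4.56 in mTert, Elovl1 at 0.17 (SE 0.12) and Elovl5 at 0.16 (SE 0.11). Their limma adjusted p was 1.0. The signals of Elovl1 were 1449, 1705, 1771 and 1767, so control 1 was low and the other arrays close. Those of Elovl5 were 3344, 3723, 4252 and 3674, with mTert 1 high and the groups overlapping. The other probe sets went against both: those of Elovl1 stood at -0.02 and -0.01, and that of Elovl5 at -0.16.

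Among regulators Srebf1 stood at -0.19 (SE 0.15), Srebf2 at -0.01 (SE 0.19), Scap at 0.05 (SE 0.12) and Insig2 at -0.03 (SE 0.19). The genes that fell on the arrays titled 2 stood near 0 here: Cyp51 at -0.08 (SE 0.30), Sqle at -0.09 (SE 0.23) and Fdps at 0.10 (SE 0.26). Of the 24 other probe sets 17 had the sign of the one that stands for their gene, against 20 in the comparison by number. Both comparisons use the same 4 arrays. With 1 array left out the sterol median ran from -0.26 without mTert 1 to 0.18 without mTert 2, and was 0.11 without control 1 and -0.17 without control 2, since each such fit holds part of the difference by number. No direction is therefore given for either arm between mTert and control.

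**Figure D5:**
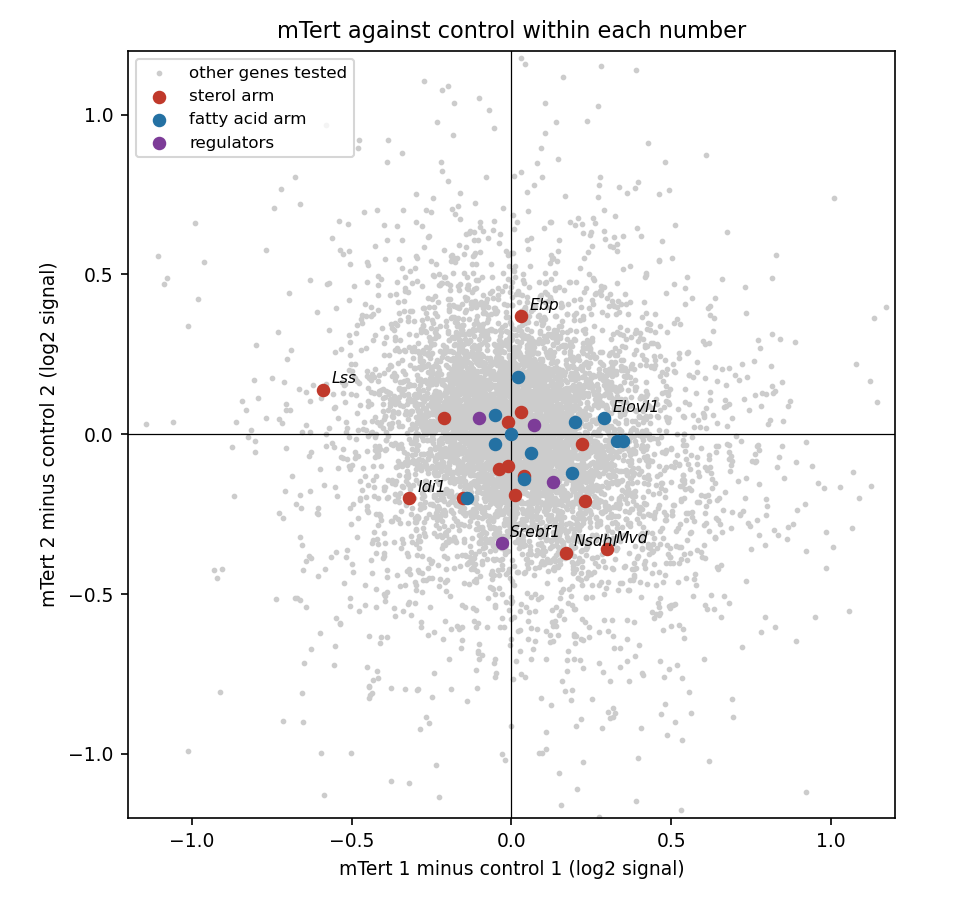
Each point is a gene, with the log2 signal of mTert 1 minus control 1 on the horizontal axis and of mTert 2 minus control 2 on the vertical axis, in the same colours by arm; 35 of the 7387 genes lie beyond the axis limit of 1.2. The members scatter around 0: of the 15 sterol genes 7 are lower in mTert on the arrays titled 1 and 10 on the arrays titled 2.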

How the data were processed

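RNA of 4 samples was hybridised to 1 MOE430A array each, and the titles give each sample its group and number. For every probe set the authors deposited a linear intensity, with a present, marginal or absent call and a detection p-value, per the file headers. No source used here gives the software that made them. The trimmed mean was already 499 on each array, and the authors' series table held the same values (largest difference 0).

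Signals were scaled to a common mean after trimming 2% at each end and taken to log2, with 1 signal at 0 raised to that array's lowest present value. Probe sets called present on at least 2 arrays, 12396 in all, were tested with limma 3.58.1 in R 4.3.3 (eBayes with intensity trend). The comparison by number had the group as a term (1 residual degree of freedom, prior 15.5), and that of mTert with control none (2, prior 4.13). Benjamini-Hochberg adjustment ran over all probe sets tested, at 0.05. Symbols came from GEO's platform annotation, and 0 needed updating. Each measured member is named; per-array signals are given for the 12 and 6 members with the smallest p in either comparison, for Srebf1, Srebf2 and Insig2, and, chosen after seeing the values, for Lss, Sc5d and the second Stard4 probe set. Both fits were tested on simulated data. The number of arrays limits the precision. Alternatives were quantile scaling, filters on calls, an offset of 50, no trend, probe set means, single arrays left out, and the block. The members and lists were chosen with earlier results of these data known.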

Additional observations from a re-analysis of the deposited data

Results flagged for a closer look

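Members whose pairs moved in opposite directions by at least 0.1 on the log2 scale were singled out, with the difference between the pairs not tested. Lss stood at -0.55 in the control pair and 0.17 in the mTert pair (arrays titled 2 minus 1). Elovl5 stood at 0.15 in the control pair and -0.21 in the mTert pair.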

How the results depend on the processing

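For arrays titled 2 against 1, the number of members called was 3, and it was 0 without the intensity trend, 0 to 1 with 1 array left out, and 5 when any probe set of a gene counted. The number of features called, 347, was 76 without the trend, 192 with no group term and 80 to 204 with 1 array left out. The sterol median of -0.348 was -0.321 with an offset of 50 before log2, -0.307 in the control pair, -0.328 in the mTert pair and -0.297 to -0.392 with 1 array left out. The fatty acid median of -0.175 was -0.247 in the mTert pair, and the sterol minus fatty acid value of -0.173 was -0.080 there. Fdps, Cyp51 and Sqle kept their direction in each alternative that was fitted; the limma adjusted p of Fdps was 0.291 without the trend, that of Cyp51 0.189 and that of Sqle 0.359. For mTert against control, 0 probe sets were called except with a replicate block, which called 18 and 0 members. Deviations of same-numbered arrays from their group means correlated at 0.373 over probe sets, but with 2 pairs, and no label on what the number marks, the numbers are not taken to pair the samples. With 1 array left out the sterol median ran from -0.264 to 0.179, the fatty acid median from -0.100 to 0.15 and their difference from -0.164 to 0.029; that difference was -0.037 on the arrays titled 1. These medians of mTert against control thus changed sign. Each fit with 1 array left out holds part of the difference by number, so the change does not measure how stable the mTert difference is. Within a number, the sterol median was 0.011 on the arrays titled 1 and -0.109 on the arrays titled 2. The fatty acid median was 0.048 and -0.02. The 12 members with the smallest p by number, and the 6 by group, kept their direction in every alternative fitted except Elovl5 by group. Elovl5 went from 0.16 to 0.0 with the mean over its probe sets. These members, Fdps, Cyp51 and Sqle among them, were picked by p on the same arrays that the alternatives use again. Their kept direction is therefore no independent check. The number of arrays, and too few present calls for Mvk, Pmvk and Tm7sf2, limit these values.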
